A study of Mus musculus with 6 samples.

Results

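The 36 genes described here belong to the cellular response to low oxygen and to glycolysis, and were followed in mouse pancreatic tumour organoids with and without a knockdown of the polarity gene Scrib. They were chosen by symbol: 37 symbols were listed, 36 of them were found among the 54453 genes of the tables, and the remaining name, Ero1a, is the newer symbol of Ero1l, which was counted once. Aldoa has 2 gene identifiers, so the members are 37 identifiers, and all 37 passed the filter on low counts that left 14169 genes. By role they were split into 2 regulators (the HIF alpha subunits), 15 HIF targets outside glycolysis, 5 genes that set the flow of glucose through glycolysis, and 15 identifiers for the glycolytic enzymes themselves.

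RNA was sequenced from 3 organoid lines, T91, T113 and T118, derived from KPC mouse pancreatic ductal adenocarcinoma, KPC being the usual name of a family of genetically engineered models of this cancer. The genotype is labelled KPF/FC for all 6 libraries, an abbreviation left as it stands. Every line gave 1 library with a short hairpin RNA against Renilla luciferase, a control sequence that mouse cells do not carry, and 1 library with hairpin #5523 against Scrib. T91 came from a female and was used at passage 10, T113 from a male at passage 13 and T118 from a male at passage 11. No source used here gives the age of the mice. The cultures grew in Matrigel, and a single hairpin sequence stands for the knockdown. The labels name no oxygen tension and no low-oxygen treatment. Each line counts as 1 replicate of each group, and the tests use the spread of the hairpin difference between lines.

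Cells adapt to low oxygen mainly through the hypoxia-inducible factors (HIF), each a pair of an unstable alpha subunit and a stable beta subunit, ARNT. When oxygen is plentiful, prolyl hydroxylases of the EGLN family mark the alpha subunit, the VHL ubiquitin ligase binds the mark and the subunit is degraded; when oxygen is short the subunit accumulates and the pair binds DNA at short elements with the core letters ACGTG or GCGTG. Its targets include genes for angiogenesis, pH control, mitophagy and almost every step of glycolysis, and pancreatic ductal adenocarcinoma is known as a poorly perfused, strongly glycolytic tumour. HIF alpha is controlled mostly at the protein level, so mRNA of the subunits and mRNA of the targets are different readouts.

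The binding letters are present upstream of most of these genes, and 6 examples are printed to show them. They are 5 members whose log2 ratio of Scrib over Renilla library in T118 was -1 or lower, and, beside them, the lactate dehydrogenase gene Ldha. The upstream window of Ldha holds 5 ACGTG matches, with each of its 2 CACGTG palindromes counted on both strands, although its own ratio in T118 was -0.59. All 6 were picked after the values were seen. The sequences are RefSeq's for GRCm38.p6, read from the 250 bases before an annotated start on the gene's strand, without bases that an exon of GENCODE M21 covers. Capitals mark ACGTG or GCGTG on either strand, so that CACGT and CACGC are the same letters read from the other strand. The stretches lie at chr8:45999868-46000100 (minus strand), chr12:54203875-54204124 (minus), chr11:120948817-120949052 (plus), chr7:138909520-138909756 (minus), chr10:59951835-59952020 (minus) and chr7:46845554-46845803 (plus).
Ankrd37: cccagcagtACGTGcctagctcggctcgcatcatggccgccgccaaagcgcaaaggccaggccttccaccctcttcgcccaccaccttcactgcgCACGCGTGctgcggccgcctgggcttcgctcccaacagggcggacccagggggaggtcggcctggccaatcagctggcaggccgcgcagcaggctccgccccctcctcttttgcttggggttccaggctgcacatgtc
Egln3: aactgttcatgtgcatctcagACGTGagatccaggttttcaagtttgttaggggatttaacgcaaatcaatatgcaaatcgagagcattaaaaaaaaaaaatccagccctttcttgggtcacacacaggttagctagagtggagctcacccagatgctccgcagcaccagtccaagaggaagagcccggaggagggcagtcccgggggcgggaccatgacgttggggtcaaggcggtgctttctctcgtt
Slc16a3: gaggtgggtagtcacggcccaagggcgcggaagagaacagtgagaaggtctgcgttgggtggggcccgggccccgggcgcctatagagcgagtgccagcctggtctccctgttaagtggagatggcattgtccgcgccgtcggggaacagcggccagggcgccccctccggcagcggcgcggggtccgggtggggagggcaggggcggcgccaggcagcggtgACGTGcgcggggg
Bnip3: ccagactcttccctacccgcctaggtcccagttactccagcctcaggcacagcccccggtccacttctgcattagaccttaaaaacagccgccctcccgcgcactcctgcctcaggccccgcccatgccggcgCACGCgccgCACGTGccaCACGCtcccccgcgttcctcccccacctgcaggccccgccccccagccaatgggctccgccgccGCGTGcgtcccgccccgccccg
Ddit4: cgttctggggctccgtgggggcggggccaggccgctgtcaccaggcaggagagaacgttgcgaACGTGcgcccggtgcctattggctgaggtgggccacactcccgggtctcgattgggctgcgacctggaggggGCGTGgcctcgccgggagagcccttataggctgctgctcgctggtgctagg
Ldha: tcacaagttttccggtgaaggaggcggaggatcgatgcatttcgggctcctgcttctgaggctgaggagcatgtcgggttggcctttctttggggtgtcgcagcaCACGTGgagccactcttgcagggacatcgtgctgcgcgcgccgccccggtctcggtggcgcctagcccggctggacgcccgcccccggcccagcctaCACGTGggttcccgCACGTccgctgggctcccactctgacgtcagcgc

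Windows were at hand for 34 of the 36 symbols, Epas1 and Ndrg1 being the others, and came to 50 because some genes have several starts. Either motif was found in 38 of the 50 windows (76%), beside 38.6% of all 32851 windows of the same length in RefSeq. ACGTG was in 50% of the member windows and 16.6% of all, and GCGTG in 52% and 28.2%. The palindrome CACGTG, which holds ACGTG on both strands and is also the E-box read by MYC-type and BHLHE40-type factors, was in 10% and 6.02%. Among the HIF targets outside glycolysis 13 of 18 windows held a motif, among the flow genes 6 of 7, and among the enzymes 18 of 24. Member windows were also richer in the dinucleotide that both motifs contain: the median number of CG was 14 against 6 in all windows, and the median GC content 62.2% against 52.4%. A match describes letters in a window and does not show that a factor was bound there in these organoids.

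The libraries held 24035559 to 36235773 estimated counts, so that 1 count was worth 0.0269 to 0.0421 CPM (counts per 1000000 of the scaled library). Scrib itself stood at 177, 157 and 158 CPM with the Renilla hairpin in T91, T113 and T118 and at 29.7, 35.0 and 30.0 CPM with the Scrib hairpin, which left 19.3% of its mRNA, and the groups did not overlap. The scaling is edgeR's TMM. All 7 markers of the tumour epithelium were detected, with a summed level of 7182 to 12891 CPM. Of the other cell types, endothelial markers summed to 0.201 to 1.68 CPM and red cell markers to 0.0976 to 0.967 CPM. Macrophage and leukocyte markers summed to 2.15 to 6.22 CPM and acinar markers to 0.183 to 0.883 CPM, with the acinar factor Ptf1a at 0 in all 6 libraries. Fibroblast markers summed to 1.11 to 7.57 CPM, highest in the Scrib library of T91, and Lum was at 0 in all 6. The 2 that passed the filter, Col1a1 and Col1a2, averaged 0.477 and 0.354 CPM with the Renilla hairpin and 1.78 and 0.907 CPM with the Scrib hairpin. Red cell, macrophage and leukocyte, and acinar sums were also highest in the T91 Scrib library, and the endothelial sum in the T118 Scrib library. The part of these cell types in the results was not tested. In such bulk RNA fewer cells expressing a gene and less of its RNA per cell cannot be told apart.

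In the fit over all 3 lines most members had a negative value for the Scrib hairpin, but none passed the test and the lines differed. In T91 alone 10 of 37 members had a ratio below 0, and without T118 the fit put 26 below 0. The fit gave a negative log2 fold change (Scrib minus Renilla hairpin) for 35 of 37 members, against 51.8% of all genes tested. With edgeR's quasi-likelihood test and Benjamini-Hochberg adjustment over all genes, 0 of 37 members passed 0.05, beside 0.00706% of all genes, which is Scrib alone; at an unadjusted p under 0.05 edgeR gave 2 members, both lower (Epas1 and Vegfa), which is 5.41% of them, beside 5.06% of all genes. DESeq2 and limma-voom also called 0 members. At an unadjusted p under 0.05 in either direction DESeq2 gave 4 members (10.8%), beside 5.41% of all genes, and limma-voom 5 (13.5%), beside 7.10%. The ratio was below 0 in all 3 lines for 7 members (18.9%), namely Epas1, Vegfa, Car9, Kdm3a, Pfkfb3, Pdk1 and Hk2, beside 15.5% of all genes. In no member did the 3 Scrib libraries all lie below the 3 Renilla libraries, a pattern that 2.14% of all genes showed.

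The members were split between the lines. In T118 the HIF targets outside glycolysis had a median log2 ratio (Scrib over Renilla library, prior count 2) of -1.01, in T113 of -0.50 and in T91 of 0.10, while the median of all genes was 0.00 in each line. The flow genes followed with medians of -0.54, -0.29 and 0.13, and the enzymes with -0.51, -0.09 and 0.18. Of the 37 members 27 lay above 0 in T91 and below 0 in T118, or 73.0% of them, beside 28.7% of all genes. Each line holds 1 library per hairpin, so a difference between lines in the knockdown effect leaves no residual degrees of freedom and was not tested.

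**Figure D1:**
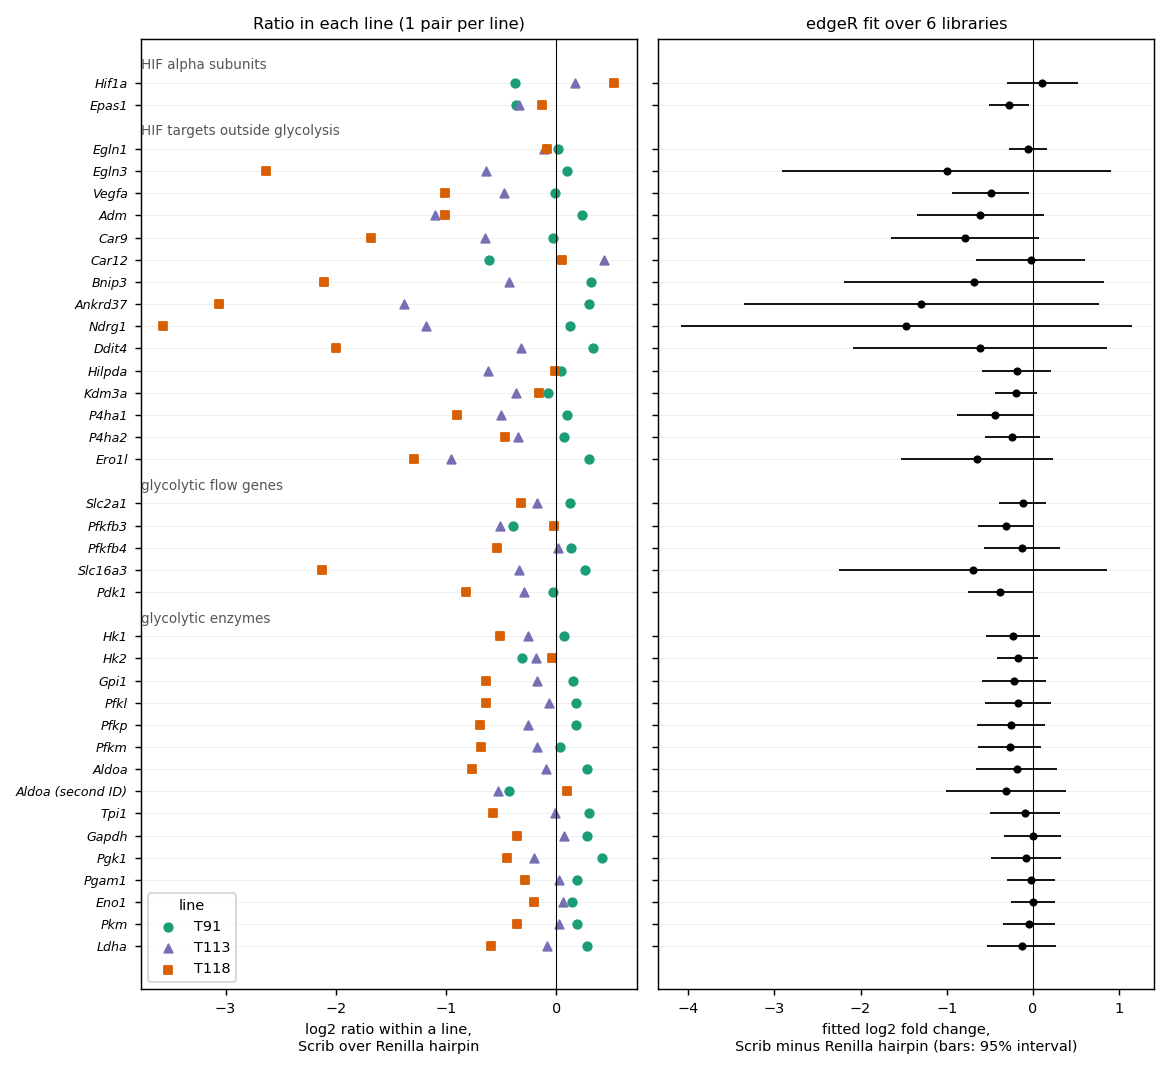
Members by role, with the log2 ratio of Scrib over Renilla library in each line on the left (circle T91, triangle T113, square T118) and the edgeR log2 fold change over all 6 libraries with its 95% interval on the right. The T118 squares reach -3.57 (Ndrg1), most T91 circles lie at or above 0, and the intervals of Epas1 and Vegfa are the ones that do not include 0.

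The alpha subunits themselves gave ratios of differing sign, from -0.38 to 0.52. Hif1a, the alpha subunit found in most cells, stood at 130, 92.6 and 92.9 CPM with the Renilla hairpin in T91, T113 and T118 and at 99.8, 104 and 134 CPM with the Scrib hairpin. It was lower in T91 and higher in T113 and T118, the opposite order of most targets, and the groups overlapped; its fitted log2 fold change was 0.11 (SE 0.17). Epas1, which encodes HIF-2 alpha, stood at 37.7, 81.9 and 86.6 CPM and at 29.2, 64.8 and 79.2 CPM. Epas1 was lower in every line, by log2 ratios of -0.37, -0.34 and -0.13, but its lines differ by more than that and the groups overlapped. The fit gave -0.28 (SE 0.10) with an unadjusted p of 0.0278 and an adjusted p of 0.746 (edgeR, Benjamini-Hochberg). Per kilobase of exon, Hif1a made up 76.6% of the 2 alpha transcripts in the T91 Renilla library and 76.4% in its Scrib library, 51.7% and 60.4% in T113, and 50.4% and 61.5% in T118.

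The oxygen-sensing hydroxylases are HIF targets too, which makes them a feedback on the pathway. Egln3, the prolyl hydroxylase most strongly induced by low oxygen, stood at 248, 265 and 116 CPM with the Renilla hairpin in T91, T113 and T118 and at 266, 171 and 18.6 CPM with the Scrib hairpin. The Scrib library of T118 lay far below the other 5 libraries, T113 was lower by a log2 ratio of -0.64, and T91 was slightly higher. The fitted log2 fold change was -1.003 with a 95% interval from -2.92 to 0.91 (adjusted p 0.804 with edgeR and Benjamini-Hochberg). Egln1, the main hydroxylase at normal oxygen, was nearly level: 133, 104 and 87.2 CPM against 135, 96.7 and 82.5 CPM, with a fitted log2 fold change of -0.06 (SE 0.09). As a share of both hydroxylase transcripts per kilobase, Egln1 was 35.8% in the T118 Renilla library and 76.7% in its Scrib library, and between 22.6% and 29.6% in the 4 libraries of T91 and T113.

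Ndrg1 and Ankrd37 gave the lowest ratios of all members, and the mitophagy gene Bnip3 and the mTOR inhibitor gene Ddit4 had the same order of lines. Ndrg1, a stress-responsive gene used as a standard hypoxia readout, lies at chr15:66929318-66969640 on the minus strand. It stood at 307, 474 and 236 CPM with the Renilla hairpin and at 336, 208 and 19.8 CPM with the Scrib hairpin, in the order T91, T113, T118. The log2 ratios were 0.13, -1.18 and -3.57, and in T118 0.226% of all genes tested had a lower one. Ndrg1 was thus level in T91, well below its control in T113 and furthest below it in T118; the fitted log2 fold change was -1.47 with a 95% interval from -4.09 to 1.15.

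Ankrd37, a small ankyrin-repeat gene and HIF-1 target whose upstream stretch is printed first above, was expressed at a lower level. It had 12.7, 19.4 and 13.9 CPM with the Renilla hairpin and 15.6, 7.42 and 1.61 CPM with the Scrib hairpin, so the same order of lines held: ratios of 0.29, -1.38 and -3.06. Bnip3, a mitophagy receptor of the outer mitochondrial membrane, stood at 87.0, 128 and 45.2 CPM against 109, 94.97 and 10.5 CPM. T91 was higher with the Scrib hairpin, T113 lower and T118 lowest, with ratios of 0.32, -0.43 and -2.10. For Bnip3, 57.0% of its 31-base words also occur in transcripts of other genes, and for Ankrd37 21.4%, so their estimated counts depend on how Salmon shared reads. Ddit4 (REDD1), an inhibitor of mTORC1 signalling with no such shared words, stood at 90.8, 96.7 and 56.3 CPM against 115, 77.5 and 14.1 CPM. Its ratios of 0.34, -0.32 and -1.996 had the same order; none of these 3 genes passed the test, and in each the groups overlapped.

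**Figure D2:**
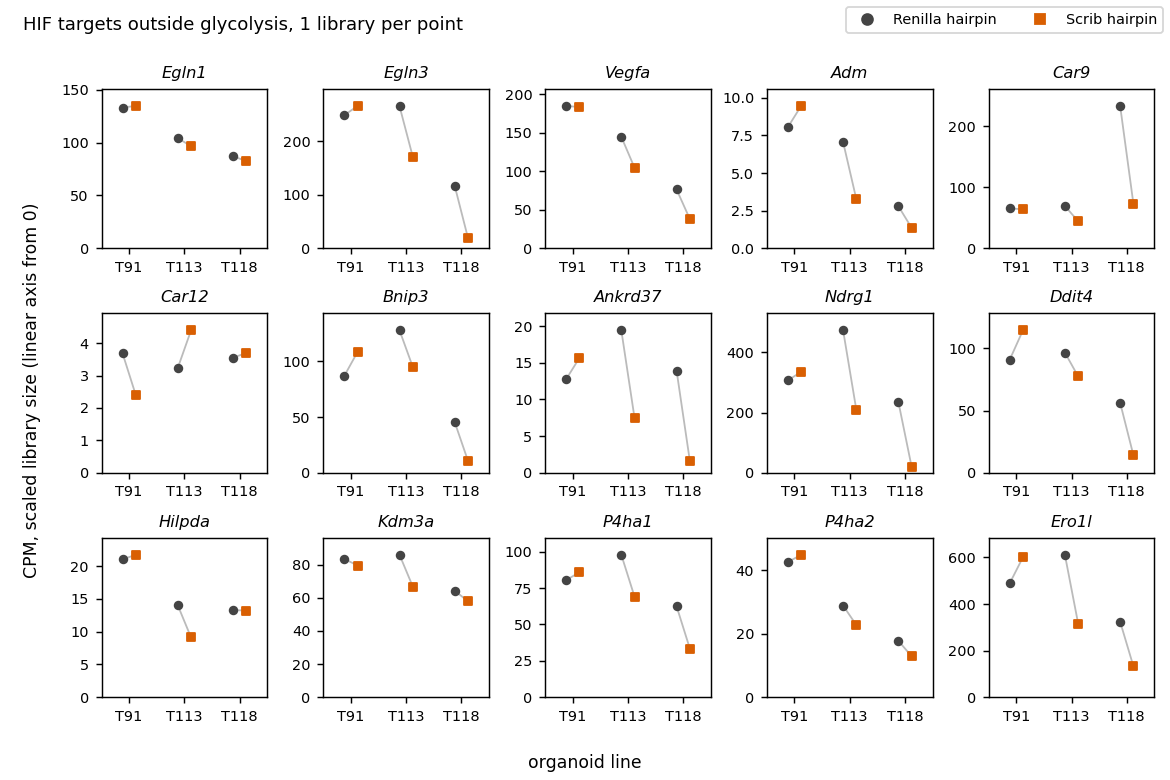
CPM of the 15 HIF targets outside glycolysis in each library, by line, with the Renilla hairpin as dark circles and the Scrib hairpin as orange squares joined by a line (linear axes from 0, 1 library per point). Ndrg1, Egln3, Ankrd37, Bnip3 and Ddit4 are level or higher in T91 and far lower in T118, whereas Egln1, Kdm3a and Hilpda show short lines in T118.

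Among secreted factors and pH regulators, the ratios of Vegfa and Car9 had the same order of lines as those of Ndrg1, and those of Adm and Car12 did not. Vegfa, the main angiogenic growth factor, stood at 185, 145 and 76.4 CPM with the Renilla hairpin and at 184, 104 and 38.0 CPM with the Scrib hairpin in T91, T113 and T118. It was level in T91 and lower in the other lines, with ratios of -0.01, -0.47 and -1.01; the fit gave -0.49 (SE 0.18), unadjusted p 0.0348 and adjusted p 0.748 (edgeR, Benjamini-Hochberg). Adm, the vasodilator peptide adrenomedullin, was low throughout, at 8.05, 7.06 and 2.80 CPM against 9.46, 3.25 and 1.35 CPM. For Adm T113 (-1.10) and T118 (-1.01) were alike. Car9, the membrane carbonic anhydrase that is a classical marker of hypoxic tumour cells, stood at 65.2, 69.2 and 233 CPM against 63.8, 44.2 and 72.8 CPM. Its ratios were -0.03, -0.65 and -1.68, and it differed from Ndrg1 and Egln3 in that the T118 Renilla library was the highest of all 6 while the T118 Scrib library lay near the level of T91. The related Car12 stood at 2.40 to 4.39 CPM and had a fitted log2 fold change of -0.03 (SE 0.26), with ratios of -0.61, 0.43 and 0.06.

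Targets in the secretory pathway, collagen processing and chromatin completed the list. Ero1l, the endoplasmic reticulum oxidase that reoxidises protein disulphide isomerase, stood at 488, 611 and 324 CPM with the Renilla hairpin and at 600, 316 and 133 CPM with the Scrib hairpin. It was higher in T91 (0.30) and lower in T113 (-0.95) and T118 (-1.29), the 2 latter values being close to each other. The collagen prolyl hydroxylase subunits P4ha1 and P4ha2 had ratios of 0.10, -0.50 and -0.90 and of 0.07, -0.35 and -0.46. Kdm3a, a histone H3 lysine demethylase, was lower in every line by little (-0.07, -0.36, -0.15). Hilpda, a lipid droplet protein, was lower in T113 (-0.62) and level in T91 (0.05) and T118 (-0.01), so it did not share the T118 pattern. All 15 HIF targets had a fitted log2 fold change below 0, with a median of -0.61 beside -0.01 over all genes, 0 passed the adjusted threshold and 1, Vegfa, had an unadjusted p under 0.05 (edgeR). That median was -1.08 without T91 and -0.24 without T118, and -0.49 without T113.

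Of the genes that feed and direct glycolysis, the lactate exporter stood out. Slc16a3 (MCT4), which carries lactate out of glycolytic cells and has no 31-base word in common with another gene, stood at 134, 177 and 96.7 CPM with the Renilla hairpin and at 160, 140 and 22.1 CPM with the Scrib hairpin. Its ratios of 0.26, -0.34 and -2.13 had the same order of lines as Ndrg1, and the groups overlapped. Slc2a1 (GLUT1), the glucose importer, was much less lowered: 340, 290 and 272 CPM against 371, 258 and 218 CPM, with ratios of 0.13, -0.17 and -0.32. Pdk1, the kinase that shuts pyruvate dehydrogenase and keeps pyruvate out of mitochondria, stood at 170, 212 and 124 CPM against 167, 173 and 70.4 CPM. It was level in T91 and lower in T113 (-0.29) and T118 (-0.82), and its fitted log2 fold change was -0.38 (SE 0.16; edgeR's unadjusted p 0.0503, adjusted p 0.753).

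The bifunctional enzymes that set the level of the sugar phosphate that activates phosphofructokinase differed in their pattern. Pfkfb3 had 36.04, 17.3 and 17.1 CPM with the Renilla hairpin and 27.4, 12.1 and 16.8 CPM with the Scrib hairpin. It was lower in T91 (-0.39) and T113 (-0.51) and level in T118 (-0.02). Pfkfb4 was level or slightly higher in T91 (0.14) and T113 (0.02) and lower in T118 (-0.54), at 7.39 to 10.8 CPM. The 5 flow genes had a median fitted log2 fold change of -0.31, with 0 past the threshold (edgeR); without T118 it was -0.04, and without T113 -0.21.

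**Figure D3:**
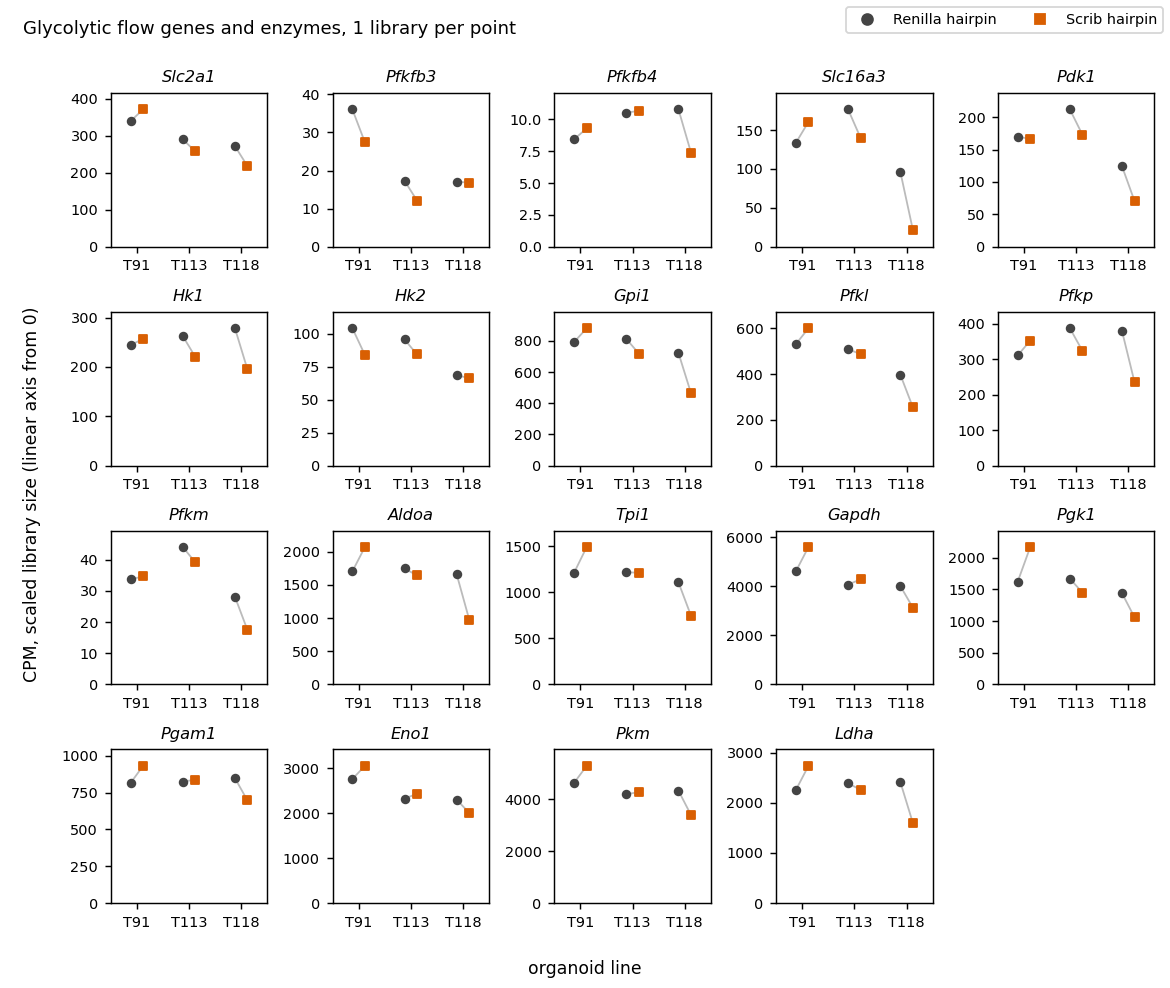
CPM of the 5 flow genes and of 14 glycolytic enzymes in each library, by line, drawn as in the plot of HIF targets (linear axes from 0, the low second Aldoa identifier left out). Most enzymes are higher with the Scrib hairpin in T91 and lower in T118, with short lines in T113, while Slc16a3 shows the longest relative drop in T118.

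The glycolytic enzymes shared a shallow version of the same pattern. Per kilobase of exon their levels ran from Gapdh (mean 1036 CPM per kb), Pkm (872), Pgk1 (699) and Ldha (689) down to Pfkm (9.85) and the second Aldoa identifier (1.77), whereas the HIF targets ran from Ero1l (78.0) to Car12 (0.460). Of the 15 enzyme identifiers 14 had a fitted log2 fold change below 0, with a median of -0.17; 2 were lower in T91, 11 in T113 and 14 in T118. With edgeR 0 passed the adjusted threshold and 0 had an unadjusted p under 0.05. The median was -0.32 without T91, -0.17 without T113 and 0.09 without T118, so its direction rested on that line.

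By step, glucose phosphorylation was carried by Hk1 and Hk2. Hk1 stood at 244, 263 and 278 CPM with the Renilla hairpin in T91, T113 and T118 and at 257, 220 and 195 CPM with the Scrib hairpin, with ratios of 0.08, -0.25 and -0.51. Hk2, the inducible isoform and a HIF target, had ratios of -0.31, -0.18 and -0.04, lower in every line but least in T118. Gpi1, which makes fructose 6-phosphate, and the phosphofructokinases Pfkl, Pfkp and Pfkm, which commit it to glycolysis, had T118 ratios of -0.64, -0.64, -0.69 and -0.69 and T91 ratios between 0.04 and 0.18. Their T113 ratios lay between -0.26 and -0.06. In none of them did the fitted fold change pass the test, and Pfkl had a fitted log2 fold change of -0.17 with all lines and 0.05 without T118.

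From aldolase on, the enzymes other than the second Aldoa identifier also stood higher in T91 and lower in T118 with the Scrib hairpin. Aldoa (identifier ENSMUSG00000030695), which splits the sugar into triose phosphates, stood at 1706, 1751 and 1659 CPM with the Renilla hairpin and at 2073, 1643 and 977 CPM with the Scrib hairpin. The Renilla libraries agreed closely while the Scrib libraries spread around them, with ratios of 0.28, -0.09 and -0.76. The second Aldoa identifier was barely expressed, at 1.09 to 2.05 CPM, and had ratios of -0.43, -0.53 and 0.10. Tpi1, Gapdh and Pgk1, the next enzymes, had T118 ratios of -0.57, -0.36 and -0.44 and T91 ratios of 0.30, 0.28 and 0.42. The T118 ratios of Pgam1 and Eno1 were -0.28 and -0.20, and those of the last enzymes Pkm and Ldha were -0.35 and -0.59. Gapdh, often used as a reference gene, stood at 4614, 4067 and 4012 CPM against 5597, 4280 and 3131 CPM, with a fitted log2 fold change of -0.0015 (SE 0.14). Ldha, which makes lactate, stood at 2260, 2391 and 2420 CPM against 2740, 2261 and 1604 CPM.

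Several enzymes share sequence with other genes, which limits their precision. The kind of sequence behind the shared words was not determined. The share of 31-base words found in other genes was 54.7% for Pgk1, 37.1% for Pgam1, 34.7% for Pkm, 28.5% for Eno1, 28.1% for Gapdh, 21.6% for Gpi1, 19.6% for Ldha and 17.0% for Aldoa. Salmon divides such reads by estimation, so these levels are less certain than those of Slc16a3, Egln3, Egln1, Kdm3a and Ddit4, which share 0% of their words.

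The mean shares of the isoenzymes were close in the hairpin groups, although the hexokinase share moved in opposite directions in T91 and T118. Per kilobase of exon Hk1 made up 67.3% ± 6.11 (SD, n = 3) of Hk1 plus Hk2 in the Renilla libraries and 66.6% ± 1.84 (SD, n = 3) in the Scrib libraries. Within lines this share went from 62.1% to 68.2% in T91, from 65.7% to 64.6% in T113 and from 74.0% to 67.2% in T118. Among the phosphofructokinases the liver-type gene Pfkl made up 65.6% ± 4.43 (SD, n = 3), the platelet-type Pfkp 24.8% ± 4.42 and the muscle-type Pfkm 9.62% ± 1.34 in the Renilla libraries. With the Scrib hairpin they were 66.9% ± 4.15, 23.9% ± 4.23 and 9.18% ± 1.3995 (SD, n = 3).

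How strongly single genes were lowered also differed between lines. A log2 ratio of -1 or lower was found for 0 of 37 members in T91, beside 2.86% of all genes. In T113 it was 3 members, Adm, Ankrd37 and Ndrg1, or 8.11%, beside 1.85% of all genes. In T118 it was 10 members, or 27.0%, beside 5.64% of all genes; 9 of them were HIF targets outside glycolysis (Ndrg1, Ankrd37, Egln3, Bnip3, Ddit4, Car9, Ero1l, Adm and Vegfa) and the other was Slc16a3. Among the 10304 genes with a mean of at least 5 CPM, where counting noise is smaller, 2.504% were that low in T118. The Scrib library of T118 was the lowest of all 6 for 30 members (81.1%), beside 22.9% of all genes.

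Over the 37 members the Pearson correlation of ratios was 0.67 between T113 and T118, -0.47 between T91 and T118 and -0.20 between T91 and T113, against 0.23, -0.01 and 0.04 over all genes. Within the 15 HIF targets the same correlations were 0.66, -0.54 and -0.69, and within the 15 enzyme identifiers -0.21, -0.68 and 0.63. Between T113 and T118 the Spearman correlation was 0.64 among the targets and 0.14 among the enzymes. The T113 and T118 ratios thus went together among the targets, while among the enzymes the 2 measures differed in sign. The enzyme values include the second Aldoa identifier, at 1.09 to 2.05 CPM, with ratios of -0.43, -0.53 and 0.10. The correlations are descriptions across genes that share libraries, and genes are not independent replicates. Genes known to respond to handling and dissociation had the same pattern of signs: all 10 of a list of immediate-early and heat shock genes were higher in T91 and lower in T113 and T118 with the Scrib hairpin, with median ratios of 0.20, -0.44 and -0.69. Their summed level went from 810 to 963 CPM in T91, from 784 to 626 CPM in T113 and from 848 to 594 CPM in T118. The part of culture state or handling in the members' ratios was not tested. The epithelium markers had median ratios of 0.16, -0.15 and -0.20, and their part was not tested either.

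**Figure D4:**
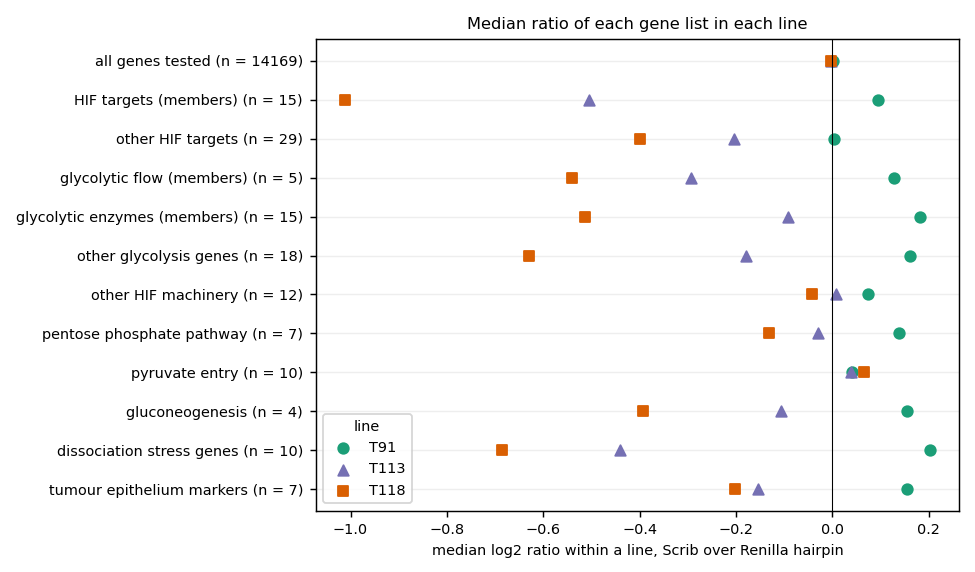
Median log2 ratio of Scrib over Renilla library for each gene list in each line (circle T91, triangle T113, square T118; n is the number of genes past the filter). All genes sit at 0 in each line, and the HIF targets are spread from -1.01 in T118 to 0.10 in T91.

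Leaving out T91 changed what passed, whereas 0 members passed without T113 or without T118 (edgeR). In those 2 fits 9 and 25 of all genes tested passed. At an unadjusted p under 0.05 they gave 0 and 2 members, and the share of all genes at that threshold was not computed for them. Without T91, Ero1l was the 1 member called, at a log2 fold change of -1.12 (adjusted p 0.00592, edgeR with Benjamini-Hochberg), beside 0.654% of all 14366 genes tested in that fit. The fit without T91 rests on T113 and T118 alone, with fewer residual degrees of freedom than the fit over all 6 libraries. It leaves out the line in which 10 of 37 members had a ratio below 0, beside 30 in T113 and 34 in T118. At an unadjusted p under 0.05, 16 of 37 members were lower (43.2%), beside 9.70% of all genes, and 1, Hif1a, was higher. The 16 comprised 7 HIF targets, 6 enzymes, 2 flow genes and Epas1, and included P4ha1 (-0.70, unadjusted p 0.000363, adjusted p 0.0509) and Vegfa (-0.73, adjusted p 0.0779). Ndrg1, Egln3, Bnip3, Ddit4 and Slc16a3 were not among them: for Ndrg1 the value was -2.32 with an unadjusted p of 0.27 (edgeR). Each of these 5 was lower in both lines, at ratios far apart, such as -1.18 and -3.57 for Ndrg1.

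Other genes of the pathway, from lists that hold no member, gave context. Of 36 other HIF targets 29 were measured; 24 had a fitted log2 fold change below 0, the median was -0.18, and the medians by line were 0.00, -0.20 and -0.40. None passed the adjusted threshold, and 3 of 29 were lower at an unadjusted p under 0.05 with edgeR, beside 5.06% of all genes. They were Bhlhe40, a transcriptional repressor (-0.48), Stc1, a secreted glycoprotein (-0.91), and Rora, a nuclear receptor (-1.22, at 0.893 CPM in the Renilla and 0.402 CPM in the Scrib libraries on average). These 3 were lower in T91 too (-0.14, -0.79 and -1.09). The ratio was below 0 in all 3 lines for 11 of the 29 (37.9%), beside 15.5% of all genes. The other HIF machinery, 12 genes including Vhl and Arnt, had a median of 0.04, with 4 lower and 8 higher and 0 past the threshold. Its 3 genes of smallest p were Cited2, which competes with HIF alpha for coactivators (-0.23), Hif3a (-0.56) and Eloc, a subunit of the VHL ligase (0.13).

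The 18 other measured glycolysis genes (isoenzymes, transporters and regulators) had a median of -0.24, with 13 lower, and medians by line of 0.16, -0.18 and -0.63, beside a median of -0.17 and medians by line of 0.18, -0.09 and -0.51 for the member enzymes. Pgm2 (-0.25), Eno2 (-0.75) and Pklr (-0.27) had the smallest p among them. The 7 genes of the pentose phosphate pathway had a median of 0.01 and the 10 measured genes of pyruvate entry into mitochondria 0.03, with medians in T118 of -0.13 and 0.07. Gluconeogenesis, with 4 measured genes, had a median of -0.09. No gene of these lists passed the adjusted threshold, and 0 had an unadjusted p under 0.05 (edgeR).

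Some members differed between the lines on average over both hairpins, in edgeR at a share not far from that of all genes. The F-test on line in the same edgeR fit called 7 of 37 members (18.9%) at an adjusted p under 0.05, beside 14.0% of all genes. Epas1 was lower in T91 (mean of its 2 libraries 33.4 CPM) than in T113 (73.3) and T118 (82.9), with adjusted p of 0.00422 and 0.00182 in the pairwise contrasts (edgeR, Benjamini-Hochberg). Pfkfb3 was higher in T91 (31.7 CPM) than in T113 (14.7, adjusted p 0.0131) and T118 (16.9, adjusted p 0.0199; edgeR). P4ha2 differed in all pairwise contrasts, going from 43.7 CPM (T91) to 25.8 (T113) and 15.3 (T118). Vegfa was lower in T118 (57.2 CPM) than in T91 (184) and T113 (125), and T91 against T113 did not pass (adjusted p 0.215, edgeR). Egln1 and Adm passed for T118 against T91 alone, at 84.8 against 134 CPM and at 2.08 against 8.75 CPM. Pdk1 was lower in T118 (97.2 CPM) than in T91 (168) and T113 (193). The F-test called no glycolytic enzyme in the edgeR fit, but of its pairwise contrasts Pfkl passed for T118 against T91 (327 against 566 CPM, adjusted p 0.0493) and Pfkm for T118 against T113 (22.8 against 41.7 CPM, adjusted p 0.0333; edgeR, Benjamini-Hochberg). On the line test DESeq2 called 13 members (35.1%), beside 18.7% of all genes, with Hk2, Pfkl and Pfkm among them, and limma-voom called Pfkm alone among the enzymes. The libraries of a line differ in hairpin, so for Vegfa, Adm, P4ha2 and Pdk1 the low T118 mean includes a lower Scrib library. For Egln1 that library was only slightly lower (ratio -0.08). The lines also differ in sex and passage, which this test cannot tell apart from the line.

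**Figure D5:**
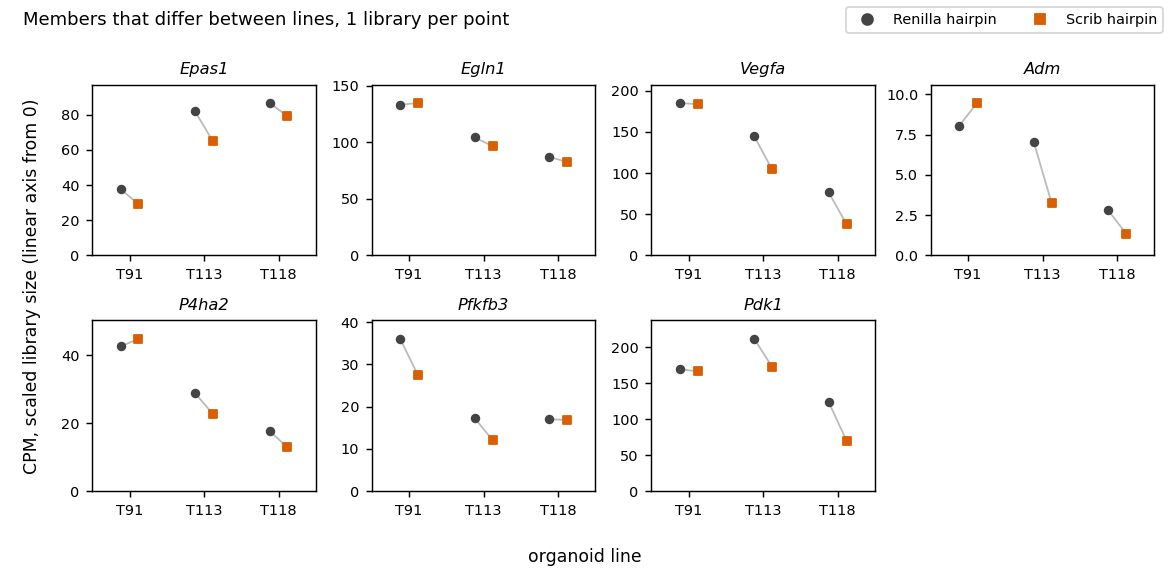
CPM of the 7 members called by the F-test on line, by line and hairpin (Renilla dark circles, Scrib orange squares, linear axes from 0, 1 library per point). Epas1 is lowest in T91, Pfkfb3 is highest there, and Vegfa, Adm, P4ha2, Egln1 and Pdk1 are lowest in T118.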

How the data were processed

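Gene expression was measured by mRNA sequencing in 6 organoid cultures, 3 lines with 2 hairpins each. The values the authors deposited are estimated counts, given for each Ensembl gene and each library. The submitters' processing notes list Salmon 1.4.0, DESeq 2 and the build GRCm38 (mm10). The transcript annotation and the strand setting are not given, so reads of overlapping antisense genes may be mixed. The labels describe delivery of the hairpins both by virus and by plasmid. Reads shared between near-identical transcripts were divided by estimation before deposit, and totals of 24035559 to 36235773 per library show that depth was left unscaled.

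After rounding to whole numbers the counts were analysed in R 4.3.3. Symbols, positions and exon lengths came from GENCODE M21, and 253 identifiers had no symbol. Genes were filtered with filterByExpr (minimum count 10), which left 14169 of 54453, holding at least 99.8% of each library, and libraries were scaled by TMM. The hairpin was tested two-sided with the robust quasi-likelihood F-test of edgeR 4.0.16 on all 6 libraries with line as a term, since both hairpins were used in every line. P-values were adjusted by Benjamini-Hochberg over all genes tested, with a threshold of 0.05. The fit had 2 residual degrees of freedom and a common biological coefficient of variation of 15.5%. The spread of each gene was moderated towards that of all genes, with a median of 4.43 prior degrees of freedom. After subtracting group means, the paired libraries of T91, T113 and T118 correlated across genes at 0.621, 0.666 and 0.662, so the lines pair the samples. No pair of libraries held identical values. The labels do not name the mouse behind a line, and p-values rest on the spread of the hairpin difference between these 3 lines. The line was tested in the same fit. Ratios within a line used log2 CPM with a prior count of 2 and have no test. Shares and levels compared between genes were computed per kilobase of merged exons, and 31-base words shared with other genes were counted on the GENCODE transcripts. No test over a list was made; lists are given by counts and medians beside all genes. The scripts were tested on simulated data.

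The members and lists were chosen with earlier results of these data known. The text names Scrib, every member, and up to 3 genes per other list with the smallest unadjusted p; other names were chosen after their values were seen. As alternatives the line term was dropped, DESeq2 size factors replaced TMM, the filter was dropped or tightened to a mean CPM of at least 5, DESeq2 1.42.0 or limma-voom (limma 3.58.1) replaced edgeR, each line was left out in turn and, for the lines, the hairpin term was dropped.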

Additional observations from a re-analysis of the deposited data

Results flagged for a closer look

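The median ratios of the 3 larger role classes were above 0 in T91 and below 0 in T118, with 1 library pair per line, so these differences were not tested. The T91 medians were small, lying within the middle 50% of all genes in that line (-0.24 to 0.19), and 7 members were below 0 in all 3 lines. On the log2 scale the median ratio in T91 lay above that in T118 by 1.11 for the HIF targets outside glycolysis (0.10 and -1.01), by 0.70 for the glycolytic enzymes (0.18 and -0.51) and by 0.67 for the flow genes (0.13 and -0.54). For the 8 members with a log2 ratio above 0 in T91 and of -1 or lower in T118, T91 lay above T118 by 3.69 for Ndrg1, 3.35 for Ankrd37, 2.73 for Egln3, 2.42 for Bnip3, 2.39 for Slc16a3, 2.33 for Ddit4, 1.59 for Ero1l and 1.24 for Adm. Car9 and Vegfa, as low in T118, were just below 0 in T91 as well (-0.03 and -0.01). Hif1a differed the other way, with T118 above T91 by 0.90 (0.52 and -0.38).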

How the results depend on the processing

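The count of members past the adjusted threshold was 0 under every alternative except leaving out T91, which gave 1 (Ero1l); leaving out a line in turn gave 0 to 1. Genes called over the whole table went from 1 to 64 with no low-count filter, 63 with DESeq2 and 8 with limma-voom, and ran from 9 to 94 when a line was left out. Without the line term, that is with no replicate block, the medians were -0.32 for HIF targets, -0.10 for enzymes and -0.30 for flow genes. With the block they were -0.61, -0.17 and -0.31. As 0 members passed in both fits, the calls cannot show what the block did. The unadjusted p went from 0.0278 to 0.597 for Epas1 and from 0.0348 to 0.611 for Vegfa without it (edgeR). The paired fit is the one reported. When a line was left out, these medians ran from -1.08 to -0.24, from -0.32 to 0.092 and from -0.27 to -0.04. Under DESeq2 size factors the median ratio of all genes was -0.0007, 0 and -0.0113 in T91, T113 and T118, and no member's direction turned. The number of members that differ between lines went from 7 to 11 with no filter (29.7% of members, beside 10.8% of all genes) and 13 with DESeq2 (35.1%, beside 18.7%). Without length correction the mean shares in the Renilla libraries were 74.5% Hk1 and 25.5% Hk2, and 54.7% Pfkl, 41.2% Pfkp and 4.01% Pfkm. Apart from leaving out a line, the sign turned for 3 members: Car12 to 0.0038 without the block and 0.016 with limma-voom, Gapdh to 0.035 without the block, and Eno1 to -0.015 with no filter and -0.0030 with the stricter one. On leaving out a line, the log2 fold changes that crossed 0 ran from -0.27 to 0.25 for Car12, -0.066 to 0.10 for Eno1, -0.31 to 0.023 for Hilpda, -0.11 to 0.35 for Hif1a, -1.10 to 0.0057 for Ddit4, -0.26 to 0.075 for Pfkfb4, -0.35 to 0.054 for Pfkl, -0.43 to 0.092 for Aldoa, -0.29 to 0.14 for Tpi1, -0.14 to 0.17 for Gapdh, -0.32 to 0.11 for Pgk1, -0.13 to 0.10 for Pgam1, -0.16 to 0.11 for Pkm and -0.34 to 0.10 for Ldha; the cause was not tested. Of these turns of sign 11 came without T118, 2 without T113 and 2 without T91. Each value over all lines rests on 3 pairs of libraries.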
